A study of Mus musculus with 11 samples.

Results

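Amino acid transporters are followed here through 10 genes, picked by name from the expression table: the sodium-coupled neutral transporters Slc38a1, Slc38a2, Slc38a3 and Slc38a4, the cationic transporters Slc7a1 and Slc7a2, the exchanger light chains Slc7a5 and Slc7a7, their heavy chain Slc3a2, and the neutral exchanger Slc1a5. All 10 were found among the 20893 genes of the table, and all 10 were among the 14244 genes that passed the filter on low values. Bulk RNA-seq covered 11 whole livers of C57BL/6 mice, 1 library per liver. The 4 controls had the genotype ROSA26-rtTA-IRES-EGFP; WT and received doxycycline food for 7 days. The induced livers had the genotype ROSA26-rtTA-IRES-EGFP; tetYAP and received the same food for 3 days (4 livers) or 7 days (3 livers). All groups thus shared the rtTA allele and doxycycline, while no control was fed for 3 days. The rtTA allele carries a floxed stop that, in the study's crosses, was removed by Cre driven from the albumin promoter, so the constitutively active YAP mutant was switched on in albumin-expressing liver cells, while RNA came from the whole organ. The labels do not list the Cre transgene for the single livers, and ages were not given in the sources used here.

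Hepatocytes take amino acids up from portal blood for protein synthesis, glucose production and the urea cycle, and they both release and take up glutamine depending on their position in the lobule. System N and system A carriers of the Slc38 family cotransport neutral amino acids with sodium, the Slc7 cationic carriers bring in arginine and lysine, and heteromeric exchangers pair an Slc7 light chain with the glycoprotein Slc3a2 (CD98 heavy chain) at the plasma membrane. Adult hepatocytes are known for Slc38a3, Slc38a4 and Slc7a2, whereas Slc1a5, Slc7a5, Slc7a1 and Slc38a1 are better known from dividing, embryonic or immune cells.

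The libraries held between 1251069 and 5939092 reads on genes, and the median library was deepest at 7 days (5355114 reads, against 3652213 at 3 days and 3151649 for controls). The values are eRPKM, that is exonic reads divided by gene length and by library size, so they give shares of a library's reads. The reads behind each value were recovered from the steps between values, and the most abundant gene of each library held only 1320 to 1549 reads per kilobase although depth differed 4.75-fold. The highest eRPKM of any gene was 1024 in the shallowest and 245 in the deepest library. By Xist and Ddx3y, controls and 3-day livers each held 2 females and 2 males, and the 3 livers at 7 days were all female. Albumin and the other 6 hepatocyte markers were detected, and their summed level was 1494 to 4724 eRPKM in controls, then 1859 to 2448 at 3 days and 1248 to 1395 at 7 days. The reads on Alb differed less, with 2417 to 3102 in controls and 2840 to 2934 at 7 days, so such values move with depth.

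In control livers the members fell into an abundant and a sparse set. Slc38a3 was highest with a mean of 314 eRPKM, followed by Slc38a4 with 269, Slc7a2 with 206 and Slc38a2 with 90.3. Slc3a2 came next with 16.2 eRPKM, and the remaining levels were 2.50 for Slc7a7, 2.05 for Slc7a5, 1.87 for Slc1a5, 1.78 for Slc38a1 and 0.639 for Slc7a1. Ranges over the 4 controls overlapped between Slc38a3 and Slc38a4 and between Slc38a4 and Slc7a2, as well as between neighbours from Slc7a7 down to Slc38a1. Slc38a2, Slc3a2 and Slc7a1 each stood apart from their neighbours. After 3 days the order of means was the same. After 7 days Slc38a2 stood at 75.0 eRPKM on average and Slc7a2 at 62.2, with overlapping ranges, and the sparse members were ordered Slc7a7, Slc1a5, Slc38a1, Slc7a5 and Slc7a1. The plot of eRPKM by liver shows this spread for each gene.

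**Figure D1:**
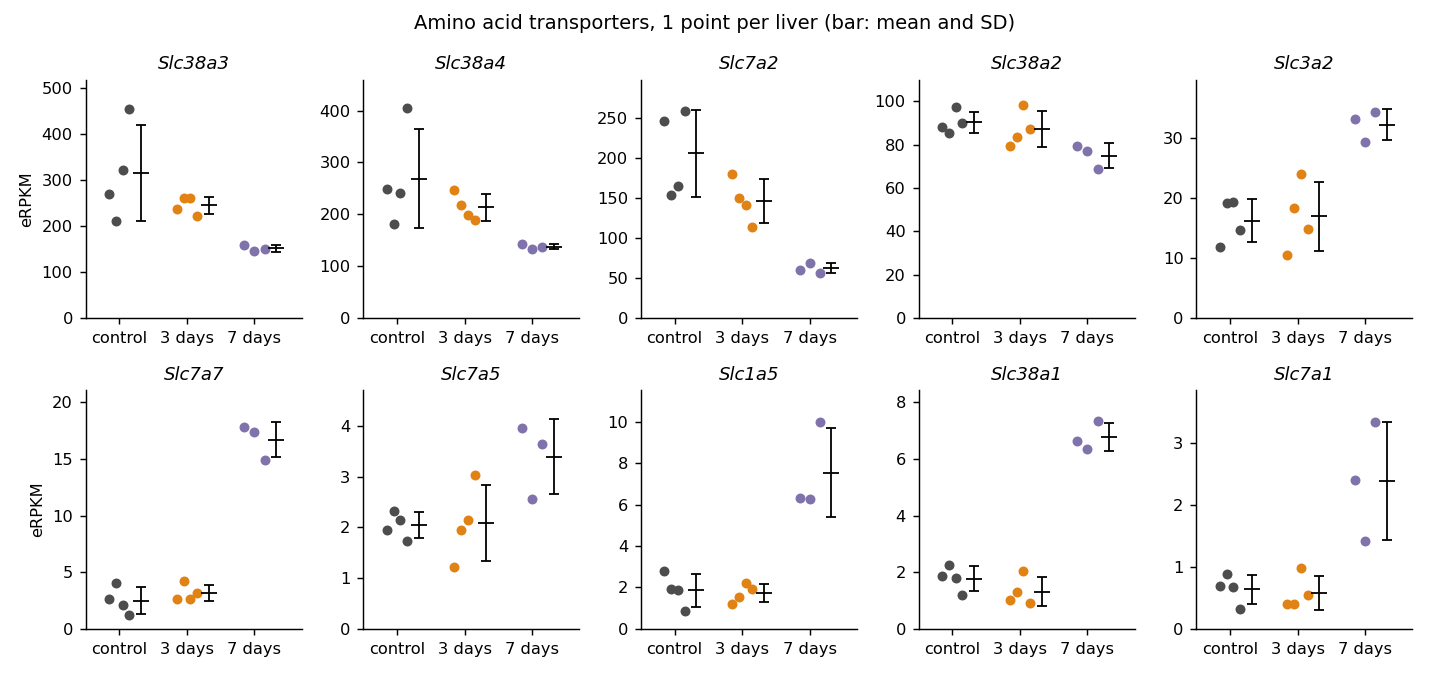
Level of each of the 10 transporters in eRPKM (vertical axes from 0, a different scale for each gene) by group, with 1 point per liver and a bar for the mean and SD of the 4 control, 4 3-day and 3 7-day livers. The 7-day livers lie above every control for Slc38a1, Slc7a1, Slc7a5, Slc7a7, Slc3a2 and Slc1a5 and below every control for Slc38a2, Slc38a3, Slc38a4 and Slc7a2, while the 3-day livers overlap the controls for all 10.

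The comparison of 7 days with control asked which transporter transcripts had changed once YAP had been active for a week. Slc7a7, Slc1a5, Slc38a1, Slc7a1 and Slc3a2 rose, Slc7a2, Slc38a3 and Slc38a4 fell, and Slc38a2 and Slc7a5 did not pass the test. Calls required an adjusted p (limma, Benjamini-Hochberg) under 0.01 together with a change of over 0.5 in either direction on the log2(eRPKM + 0.5) scale, where changes of low genes come out smaller than they are. Of the 10 members 5 were called higher, against 18.0% of all 14244 tested genes, and 3 were called lower, against 5.77% (23.8% in either direction). The 7-day livers did not overlap the controls for any member, with 6 higher and 4 lower, whereas 36.7% of all tested genes lay wholly higher and 13.3% wholly lower. The median log2 fold change was 0.79 over the members and 0.26 over all tested genes. Relative to that median, the members ranged from -1.95 for Slc7a2 to 2.34 for Slc7a7. The balance of all calls depended on scaling, with 2561 genes higher and 822 lower on the deposited values, 1951 and 1254 with median-ratio size factors (median 0.03), and 1857 and 1821 after quantile normalization (median -0.08). The 8 called members kept their direction under both scalings, but not all kept their call. Slc38a4, Slc7a1 and Slc3a2 lost it under both, and Slc38a3 lost it after quantile normalization. Slc38a2 (0.02) and Slc7a5 (-0.08) changed sign after quantile normalization.

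Among the Slc38 carriers Slc38a3 and Slc38a4 were called lower at 7 days, Slc38a1 was called higher and Slc38a2 was not called. Slc38a3 (chr9:107552970-107569705 on mm9, minus strand), the system N carrier that moves glutamine, histidine and asparagine across the hepatocyte membrane, had 270, 211, 322 and 455 eRPKM in control livers 1 to 4, 237, 261, 260 and 222 in 3-day livers 1 to 4, and 159, 145 and 150 in 7-day livers 1 to 3. The 7-day livers were below all others, and the controls spread more widely than either induced group. The 7-day value was -1.0 on the log2 scale (SE 0.22, adjusted p = 0.00321), a mean of 151 against 314 eRPKM. Fewer cells of a type and less RNA per cell cannot be told apart in these bulk samples. In the controls the value fell in order of depth, from 455 eRPKM in the shallowest library to 211 in the deepest. In reads per kilobase the controls held 586 to 1195 and the 7-day livers 820 to 889, which overlap. With log2 depth as a covariate the change was -0.55 (adjusted p = 0.00922), and against the 2 deepest controls only it was -0.66 (adjusted p = 0.00788). The call was kept in 19 of 25 alternatives. It was lost after quantile normalization (-0.32, adjusted p = 0.0593), with the replicate number as a block (-0.92, adjusted p = 0.0122) and among female livers only (-0.78, adjusted p = 0.0233). It was also lost without 7-day liver 1 (-1.03, adjusted p = 0.0118), 2 (-0.97, adjusted p = 0.0165) or 3 (-0.99, adjusted p = 0.0160).

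Slc38a4 (chr15:96825254-96886387, minus strand), a system A carrier found mainly in liver and encoded by an imprinted gene, had 249, 181, 242 and 404 eRPKM in the controls, 247, 218, 198 and 190 at 3 days, and 143, 134 and 137 at 7 days. Again the 7-day livers were the lowest and lay close together. At 7 days the log2 fold change came to -0.89 (SE 0.22, adjusted p = 0.00733). The reads per kilobase overlapped here too, with 520 to 1028 in controls and 753 to 823 at 7 days. This call was kept in only 8 of 25 alternatives, with log2 fold changes from -1.16 to -0.28. It was lost with depth as a covariate (-0.42, adjusted p = 0.0331), against the 2 deepest controls only (-0.62, adjusted p = 0.0214), and without control 1 (-0.91, adjusted p = 0.0155), control 3 (-0.92, adjusted p = 0.0143) or 7-day liver 1 (-0.92, adjusted p = 0.0238), 2 (-0.87, adjusted p = 0.0298) or 3 (-0.89, adjusted p = 0.0295). Over all 935 tested genes with a mean of at least 300 reads per kilobase, which include both these genes, Slc7a2 and Slc38a2, the median log2 fold change at 7 days was -0.49, and 27.1% were called lower. Over the other 13309 genes the median was 0.31 and 4.28% were called lower.

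Slc38a2 (chr15:96517825-96530129, minus strand) encodes the system A carrier that many cells induce when amino acids run short. It held 88.4, 85.6, 97.2 and 89.9 eRPKM in controls, 79.4, 83.7, 98.5 and 87.5 at 3 days, and 79.2, 77.2 and 68.6 at 7 days. The 7-day livers were the lowest, by a small margin, and the groups at 3 days and control overlapped. The log2 fold change of -0.27 at 7 days (SE 0.13, adjusted p = 0.123, 95% interval -0.55 to 0.01) did not pass. Slc38a1 (chr15:96401849-96473344, minus strand), a system A glutamine carrier of neurons and dividing cells, had 1.87, 2.25, 1.81 and 1.18 eRPKM in controls, 1.01, 1.31, 2.04 and 0.910 at 3 days, and 6.65, 6.36 and 7.33 at 7 days. The 7-day livers lay close together and well above the other 8. The log2 fold change came to 1.70 (SE 0.27, adjusted p = 0.00038), from 22 to 185 reads per control library to 532 to 581 reads at 7 days. It was called in all 26 alternatives, with values from 1.04 to 1.90. Its level also rose with depth among the controls, and against the 2 deepest controls only the change was 1.51 (adjusted p = 0.00443).

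**Figure D2:**
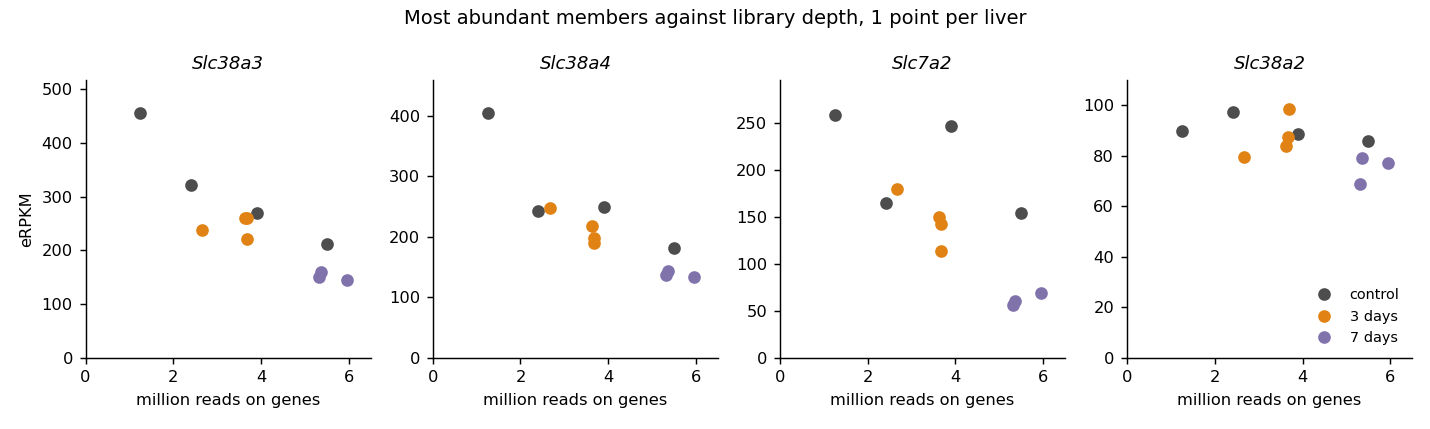
Level in eRPKM (vertical axes from 0) of Slc38a3, Slc38a4, Slc7a2 and Slc38a2 against the number of reads on genes in each library, 1 point per liver, coloured by group. Slc38a3 in controls falls from 455 eRPKM in the shallowest to 211 in the deepest library, while for Slc7a2 the 7-day livers lie at 56.7 to 69.0 eRPKM where that deepest control has 154.

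The cationic pair moved in opposite directions at 7 days. Slc7a2 (chr8:41947750-42007662, plus strand) encodes the arginine and lysine carrier of hepatocytes. It had 247, 154, 165 and 259 eRPKM in controls, 180, 150, 142 and 114 at 3 days, and 60.8, 69.0 and 56.7 at 7 days. All 7-day livers were under every other liver, including the deepest control. The log2 fold change of -1.69 (SE 0.21, adjusted p = 7.48e-05) was kept as a call in all 25 alternatives, from -1.96 to -1.36. Against the 2 deepest controls only it was -1.65, with depth as a covariate -1.44, and among female livers -1.36. Its reads per kilobase were 334 to 992 in controls and 310 to 423 at 7 days. Its exons share 635 bases with the gene Gm17475, and the counting did not use strand. Slc7a1 (chr5:149138986-149211480, minus strand), the high-affinity carrier for the same amino acids that is found in most tissues but is low in adult liver, had 0.688, 0.877, 0.668 and 0.321 eRPKM in controls, 0.402, 0.406, 0.983 and 0.546 at 3 days, and 2.40, 1.42 and 3.33 at 7 days. The 7-day livers were all higher but varied more than 2-fold among themselves. These levels rest on 3 to 36 reads per control library and 63 to 132 reads per 7-day library. Its 7-day change was 1.31 (SE 0.31, adjusted p = 0.00503), which was called in 13 of 26 alternatives, always positive, from 0.77 to 1.74. The call was lost without control 1 (1.34, adjusted p = 0.0111), 3 (1.33, adjusted p = 0.0112) or 4 (1.16, adjusted p = 0.0129) and without 7-day liver 1 (1.28, adjusted p = 0.0216) or 3 (1.08, adjusted p = 0.0342). Its level rose with depth among controls, and with depth as a covariate the change was 1.0 (adjusted p = 0.0643). The ratio of Slc7a2 to Slc7a1 in eRPKM was 176 to 806 in controls, then 144 to 448 at 3 days and 17.0 to 48.6 at 7 days.

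Of the heteromeric exchangers, the y+L light chain Slc7a7 had the largest rise of the 10 members. Slc7a7 (chr14:54989128-55032856, minus strand) exports cationic amino acids in exchange for neutral ones and is mutated in lysinuric protein intolerance. It is known from kidney, intestine and macrophages. It had 2.60, 4.04, 2.11 and 1.25 eRPKM in controls, 2.63, 4.19, 2.65 and 3.18 at 3 days, and 17.8, 17.4 and 14.9 at 7 days. The 7-day livers were far above all 8 others, whose ranges overlapped. The log2 fold change came to 2.60 (SE 0.30, adjusted p = 3.89e-05), a mean of 16.7 against 2.50 eRPKM, and it was called in all 26 alternatives, from 2.02 to 2.83. Among female livers only it was 2.32 (adjusted p = 0.000609). Its level rose with depth among controls, and against the 2 deepest controls only the change was 2.19 (adjusted p = 0.000419). The 6 macrophage markers in the table were all higher in every 7-day liver than in every control, against 36.7% of all tested genes. Of them 4 were called higher (Marco 3.47, Cd68 2.61, Csf1r 1.81 and Cd5l 1.09), against 18.0% of all tested genes. Cd5l lost its call without control 1, 2 or 4 or any 7-day liver (0.89 to 1.12). Their summed level was 198 to 407 eRPKM in controls, then 254 to 456 at 3 days and 740 to 796 at 7 days, with no marker of this or any other list at 0 in every library, and their part in the rise of Slc7a7 was not tested. Slc7a7 shares 226 exon bases with Oxa1l, whose log2 fold change of 0.54 did not pass (adjusted p = 0.156).

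RefSeq promoter windows of 300 bases (250 before to 50 after the start, GRCm38.p6) were at hand for 5 of the 10 members, Slc38a2, Slc38a4, Slc7a1, Slc7a7 and Slc3a2, in 12 windows. Both strands were searched for TGATGNAA (ATF4-type), GGAATG (TEAD-type), CACGTG (E-box) and CAAAGTCC (HNF4-type), and only Slc7a7 windows held any match. The first Slc7a7 window held TGATGNAA at 2 places, starting at -141 and -1 from the start, and 3.97% of all 32851 promoter windows held these letters. The second window overlaps the first and held the latter place again. Slc7a7 windows 3 and 5 each held GGAATG once, starting at 41 and -208, as did 14.7% of all windows. CACGTG was present in 7.15% and CAAAGTCC in 1.42% of all windows. No match overlapped a match of another of these motifs. A match is a run of letters and not a measured site. From 150 bases before to 10 after the start, the first windows of 3 members that rose and 1 that fell are shown 5′ to 3′ so that the place of the matches can be read, with TGATGNAA matches in capitals:
Slc7a7, chr14:54417935-54418094, minus strand: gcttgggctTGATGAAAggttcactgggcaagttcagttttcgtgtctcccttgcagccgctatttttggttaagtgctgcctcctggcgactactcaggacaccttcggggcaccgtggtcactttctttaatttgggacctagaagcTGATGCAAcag
Slc3a2, chr19:8713888-8714047, minus strand: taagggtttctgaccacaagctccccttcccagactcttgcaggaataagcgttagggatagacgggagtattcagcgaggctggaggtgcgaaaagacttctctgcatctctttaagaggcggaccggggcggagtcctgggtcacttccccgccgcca
Slc7a1, chr5:148399895-148400054, minus strand: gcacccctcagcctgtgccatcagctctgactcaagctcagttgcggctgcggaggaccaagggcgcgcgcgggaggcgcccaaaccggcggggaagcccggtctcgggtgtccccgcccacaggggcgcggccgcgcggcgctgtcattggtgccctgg
Slc38a4, chr15:97055947-97056106, minus strand: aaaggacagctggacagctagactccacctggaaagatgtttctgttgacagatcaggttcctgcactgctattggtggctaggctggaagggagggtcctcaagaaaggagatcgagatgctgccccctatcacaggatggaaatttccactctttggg

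The heavy chain and the other light chain changed less. Slc3a2 (chr19:8781372-8797859, minus strand), which carries Slc7a5 and Slc7a7 to the cell surface, had 11.8, 19.1, 19.3 and 14.7 eRPKM in controls, 10.5, 18.3, 24.0 and 14.8 at 3 days, and 33.1, 29.2 and 34.2 at 7 days. All 7-day livers were higher than the other 8, while the 3-day livers spread on both sides of the controls. The change of 0.99 (SE 0.25, adjusted p = 0.00834) was called in 11 of 26 alternatives, always positive, from 0.72 to 1.16. It was lost without control 1 (0.85, adjusted p = 0.0249), 3 (1.08, adjusted p = 0.0101) or 4 (0.95, adjusted p = 0.0215) and without 7-day liver 1 (0.97, adjusted p = 0.0320), 2 (1.06, adjusted p = 0.0211) or 3 (0.94, adjusted p = 0.0367). Slc7a5 (chr8:124405052-124431594, minus strand), the LAT1 light chain that takes up leucine and other large neutral amino acids, had 1.96, 2.33, 2.15 and 1.74 eRPKM in controls, 1.23, 1.95, 2.15 and 3.04 at 3 days, and 3.97, 2.57 and 3.65 at 7 days. The 7-day livers were above the controls, but 1 of them was below the highest 3-day liver. With 8 to 47 reads per control library, the log2 fold change of 0.60 (SE 0.27, adjusted p = 0.101, 95% interval 0.01 to 1.19) did not pass. Slc3a2 over the sum of both light chains was 2.58 to 4.91 in controls, then 2.38 to 5.0 at 3 days and 1.46 to 1.84 at 7 days.

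Slc1a5 (chr7:17366695-17383623, plus strand), the sodium-dependent exchanger ASCT2 that brings glutamine into dividing cells, had 2.80, 1.92, 1.90 and 0.844 eRPKM in controls, 1.19, 1.55, 2.20 and 1.91 at 3 days, and 6.30, 6.27 and 10 at 7 days. The 7-day livers were clear of all others, with liver 3 the highest. Its log2 fold change came to 1.80 (SE 0.32, adjusted p = 0.000856), and the values rest on 3 to 31 reads per control library and 96 to 151 at 7 days. It was called in 25 of 26 alternatives and was lost with depth as a covariate (1.33, adjusted p = 0.0131). The 5 proliferation markers were all called higher at 7 days, against 18.0% of all tested genes. They summed to 3.90 to 17.2 eRPKM in controls, then 12.7 to 93.6 at 3 days and 92.2 to 142 at 7 days. Their part in the changes of Slc1a5, Slc38a1 and Slc7a1 was not tested. Cholangiocyte markers (1 of 6 tested called, Krt7) summed to 42.9 to 53.4 eRPKM in controls, then 44.6 to 87.1 at 3 days and 67.8 to 123 at 7 days. Most of this sum was Spp1, which was not called (32.0 to 43.8 eRPKM in controls and 49.9 to 96.2 at 7 days). Krt7 itself held 0 to 0.785 eRPKM in controls and 1.84 to 2.06 at 7 days. Endothelial markers (1 of 6 called, Cdh5) summed to 108 to 193, 128 to 234 and 156 to 170 eRPKM, and stellate markers (none of 5 called) to 135 to 197, 115 to 238 and 94.7 to 104. T cell (0 of 5) and B cell (0 of 4) markers were not called. Beside these counts at 7 days, 18.0% of all tested genes were called higher and 5.77% lower. Of 7 hepatocyte markers 1 was called lower (Ttr, -1.40), and their median log2 fold change at 7 days was -0.88. Their part in the lower levels of Slc38a3, Slc38a4 and Slc7a2 was not tested.

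The comparison of 3 days with control asked which changes were already present early in induction. None of the 10 members was called higher or lower, when 0.0421% of all tested genes were called higher (6 genes) and 0% lower, and all 10 overlapped the controls, when 3.38% of genes lay wholly higher and 2.25% wholly lower. At an unadjusted p under 0.05, limma had 1 member, Slc7a2, and 1718 of all tested genes. No member was called at 3 days in any alternative, limma-voom on recovered reads included. Slc7a2 had a log2 fold change of -0.48 (SE 0.20, adjusted p = 0.362), with 3 of 4 livers below all controls. The other members lay between -0.34 (Slc38a1, adjusted p = 0.607, 95% interval -0.88 to 0.20) and 0.35 (Slc7a7, adjusted p = 0.635, 95% interval -0.25 to 0.95). For each of the 8 members called at 7 days, the 95% interval at 3 days ended short of its 7-day change, and smaller early changes lie within these intervals. The 7-day change has an interval of its own, which overlapped the interval at 3 days for Slc38a3, Slc38a4 and Slc3a2. These members were not called in the direct comparison of 7 with 3 days.

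The comparison of 7 with 3 days tested the step between the induced groups. Slc7a7, Slc38a1, Slc1a5 and Slc7a1 were called higher and Slc7a2 lower, that is 4 of 10 members against 14.0% of all tested genes and 1 against 5.31%. Scaling moved the split over all genes from 1997 higher and 756 lower to 1515 and 1181 with median-ratio size factors and 1436 and 1430 after quantile normalization. No overlap was seen for 9 members, 5 higher and 4 lower, against 31.3% and 13.8% of all genes. The log2 differences were 2.25 for Slc7a7 (SE 0.30, adjusted p = 0.000139), 2.04 for Slc38a1 (SE 0.27, adjusted p = 0.000135), 1.85 for Slc1a5 (SE 0.32, adjusted p = 0.000903), 1.39 for Slc7a1 (SE 0.31, adjusted p = 0.00451) and -1.21 for Slc7a2 (SE 0.21, adjusted p = 0.00102). Slc3a2 (0.97, adjusted p = 0.0110), Slc38a3 (-0.69, adjusted p = 0.0261) and Slc38a4 (-0.62, adjusted p = 0.0479) missed the threshold. Slc7a1 lost this call without 3-day liver 1, 2 or 4 or 7-day liver 1 or 3 (1.15 to 1.38), and Slc3a2 gained one without 3-day liver 3 (1.15, adjusted p = 0.00224). This comparison shares its 7-day livers with the one against control, so both are shown side by side in the plot of fitted changes.

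**Figure D3:**
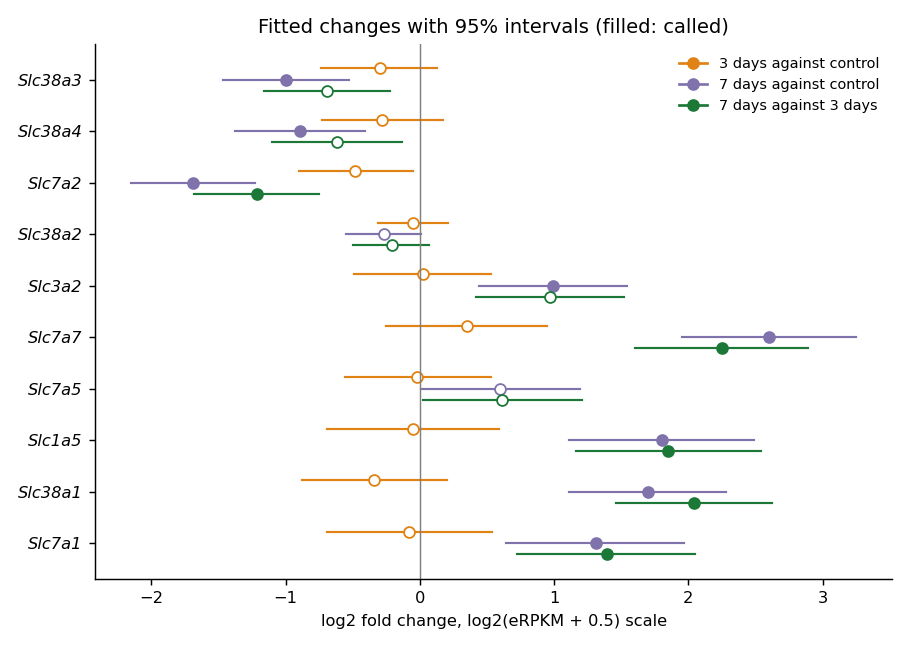
Fitted log2 fold change of each transporter (horizontal axis, log2(eRPKM + 0.5) scale) with its 95% interval, with 1 colour for each of the 3 comparisons and filled points for calls. No point is filled at 3 days, while at 7 days Slc7a7 is highest at 2.60 and Slc7a2 lowest at -1.69.

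Added up, the 10 members held 662 to 1228 eRPKM in controls, then 638 to 760 at 3 days and 486 to 513 at 7 days. Slc38a2, Slc38a3, Slc38a4 and Slc7a2 made up 95.4% to 98.4% of this sum in controls and 84.9% to 87.1% at 7 days. The 5 members called higher together held 18.3 to 28.2 eRPKM in controls, then 15.7 to 31.8 at 3 days and 60.6 to 69.8 at 7 days. Slc38a3 over Slc38a1, which both carry glutamine, was 93.5 to 386 in controls, then 128 to 244 at 3 days and 20.4 to 23.9 at 7 days. These sums and ratios describe the values and contain the depth trend of the abundant members.

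Of 41 listed plasma membrane amino acid transporters outside the 10, 26 could be tested, and at 7 days 5 were called higher and 5 lower, with a median log2 fold change of 0.04. Over all tested genes 18.0% were called higher and 5.77% lower, with a median of 0.26, so the number called higher was near that share. The 15 not tested were low, with no mean over 0.350 eRPKM. Slc1a2, the glutamate carrier of hepatocytes around the central vein, had 62.5 to 82.3 eRPKM in controls, then 40.1 to 58.3 at 3 days and 0.795 to 1.80 at 7 days, a log2 fold change of -5.40 (SE 0.21, adjusted p = 1.51e-08). Slc3a1, the heavy chain of the cystine and dibasic amino acid exchanger, fell from 31.7 to 69.5 eRPKM in controls to 4.25 to 5.23 at 7 days (log2 fold change -3.10, adjusted p = 3.13e-06), opposite to the heavy chain Slc3a2. Slc43a1, a facilitated carrier of large neutral amino acids, was also called lower (-2.0, adjusted p = 0.00513).

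Among further light chains of Slc3a2, Slc7a6 and Slc7a8 rose, while the cystine light chain Slc7a11, named after its value was seen, had a log2 fold change of -0.30 (adjusted p = 0.332). Slc7a6 (y+LAT2) had 0.520 to 0.637 eRPKM in controls, then 0.215 to 0.519 at 3 days and 4.59 to 9.48 at 7 days, a log2 fold change of 2.65 (SE 0.28, adjusted p = 2.06e-05). Slc7a8 (LAT2) had 1.57 to 3.28, 1.47 to 2.56 and 10.8 to 18.2 eRPKM in the same order, a change of 2.30 (SE 0.28, adjusted p = 5.76e-05). Slc1a4, the ASCT1 exchanger related to Slc1a5, had 1.98 to 3.64, 1.48 to 2.08 and 8.56 to 9.64 eRPKM, a change of 1.63 (SE 0.23, adjusted p = 0.000174). Of these 6 genes, 5 were called in all alternatives, and Slc43a1 in 19 of 26, its call being lost without control 1 or 2 or any 7-day liver (-2.20 to -1.73). The remaining calls, named after their values were seen, were Slc43a2 (1.44) and the taurine carrier Slc6a6 (1.12), which were higher, and Slc16a10 (-1.60) and Slc6a12 (-1.51), which were lower. At 3 days none of the 26 was called, when 0.0421% of all tested genes were called higher and 0% lower. From 3 to 7 days 6 were called higher and 4 lower, against 14.0% and 5.31% of all tested genes.

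**Figure D4:**
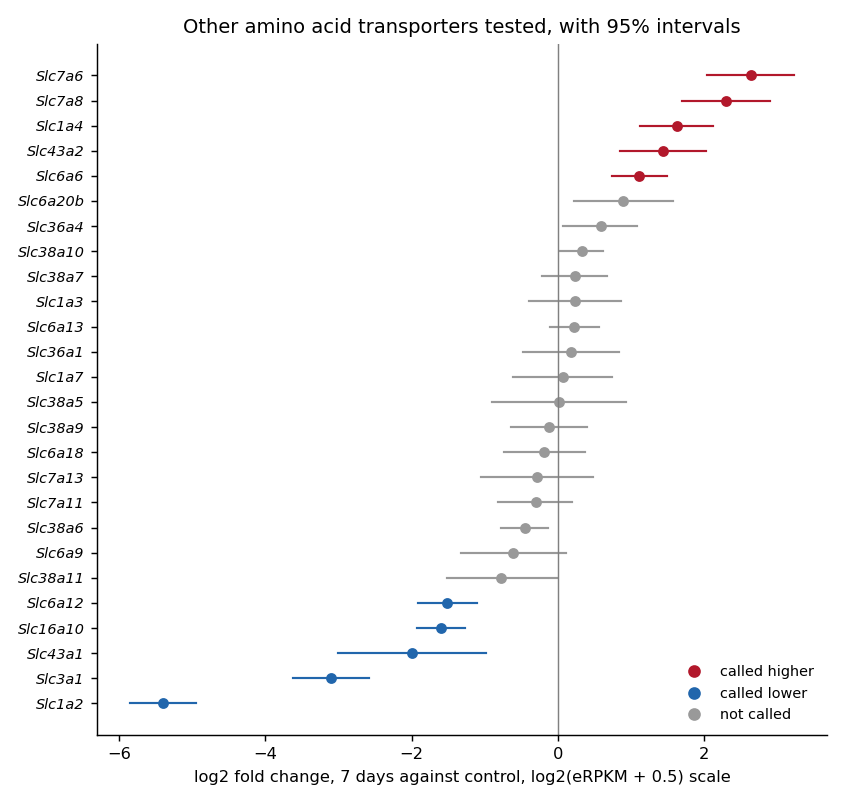
Log2 fold change at 7 days against control (horizontal axis, log2(eRPKM + 0.5) scale) with its 95% interval for the 26 other plasma membrane amino acid transporters that could be tested, coloured by call. The 5 genes called higher lie between 1.12 and 2.65 and the 5 called lower between -5.40 and -1.51.

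Genes that handle amino acids inside the cell were counted from 4 further lists. Of 16 tested enzymes of the transported amino acids, 2 were called higher and 3 lower at 7 days, against 18.0% and 5.77% of all tested genes. Their median log2 fold change was -0.45, against 0.26 over all tested genes. The pericentral glutamine synthetase Glul fell from 167 to 318 eRPKM in controls to 67.6 to 74.9 (-1.72, adjusted p = 6.18e-05), and the periportal liver glutaminase Gls2 from 126 to 180 to 44.3 to 47.5 (-1.68, adjusted p = 9.69e-06). The serine dehydratase Sds fell likewise (-1.64, adjusted p = 5.24e-05), and the ornithine decarboxylase Odc1, which starts polyamine synthesis, was called higher (1.11, adjusted p = 0.00125). Odc1 stood at 28.9 to 50.7 eRPKM in controls, at 62.9 to 107 at 3 days and at 82.8 to 90.2 at 7 days. Its livers at 3 days were thus already above all controls (0.97, adjusted p = 0.0616), and its 7-day call was lost with depth as a covariate and against the 2 deepest controls only. Over the marker lists, 7 of 8 pericentral and 4 of 7 periportal genes were called lower, against 5.77% of all tested genes. None was called higher, against 18.0%. These counts include Slc1a2, Glul, Gls2 and Sds, which were already named above. The part of the pericentral and periportal genes in the lower levels of Slc38a3, Slc38a4 and Slc7a2 was not tested. Of 10 mitochondrial carriers 1 was called, against 23.8% of all tested genes in either direction. It was the ornithine carrier Slc25a15, which fell from 122 to 182 eRPKM in controls to 54.0 to 63.5 (-1.30, adjusted p = 8.33e-05).

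Of 19 genes of the amino acid response, whose main factor is ATF4, 4 were called higher and 1 lower at 7 days, both near the shares over all tested genes (18.0% and 5.77%). Ddit4, an inhibitor of mTORC1, rose from 1.84 to 4.19 eRPKM in controls to 29.9 to 48.4 (3.37, adjusted p = 7.92e-06). Atf3, a stress-induced factor, rose by 2.90 (adjusted p = 1.59e-05), and the serine synthesis enzymes Psat1 and Psph by 2.77 (adjusted p = 6.04e-05) and 1.42 (adjusted p = 0.00186), the last of which lost its call after quantile normalization, with depth as a covariate and without 7-day liver 1 (1.29, adjusted p = 0.0134). Atf4 itself had a log2 fold change of -0.27 (adjusted p = 0.178) and Asns, a textbook ATF4 target, of -0.18 (adjusted p = 0.881), with controls between 0.366 and 11 eRPKM, and both were named after their values were seen. The 1 gene called lower was Cth (-1.19, adjusted p = 0.00284). Of 23 genes through which mTORC1 senses amino acids, 2 were called higher and none lower, which is under both shares. Rragd, a Rag GTPase, rose from 1.29 to 2.49 eRPKM to 6.56 to 9.93 (1.96, adjusted p = 0.000378), and Depdc5, a GATOR1 subunit, by 1.01 (adjusted p = 0.00488, called in 14 of 26 alternatives and lost without control 1, 3 or 4 or any 7-day liver, 0.91 to 1.05). At 3 days no gene of these lists was called, when 0.0421% of all tested genes were called higher and 0% lower.

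The genes closest in pattern to each called member were found by the root mean square difference of log2 values over the 11 livers, each gene centred on its control mean, among 12569 genes with a mean of at least 1 eRPKM. For Slc38a3 these were Sord, which makes fructose from sorbitol (0.083), the alcohol dehydrogenase Adh1 (0.093) and the tyrosine breakdown enzyme Hpd (0.120). For Slc38a4 they were Sord (0.115), the adenosine kinase Adk (0.125) and the urea cycle enzyme Cps1 (0.130), and for Slc7a2 they were Gls2 (0.192), Acbd5 (0.219) and Dpyd (0.222). Sord, Adh1 and Hpd had control means of 309, 305 and 311 eRPKM, close to the 314 of Slc38a3. Of the members called higher, Slc38a1 was closest to Osbpl7 (0.102), Ptprm (0.159) and Evi2b (0.166). For Slc3a2 the genes were Zc3h7b (0.161), Trmt12 (0.165) and Dag1 (0.167), and for Slc7a1 Tspan15 (0.176), Arhgef1 (0.202) and Itsn1 (0.203). Slc1a5 was closest to Myo7a (0.206), Igsf8 (0.232) and Tbxas1 (0.247), and Slc7a7 to Arrdc1 (0.264), Slc37a2 (0.281) and Gng2 (0.286). All points share their libraries and depth, so the distances are a description.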

How the data were processed

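The members and gene lists were chosen with earlier results of these data known. Bulk RNA-seq libraries of 11 livers were made with the TruSeq kit without strand marking. The authors masked low-quality bases, aligned to mm9 (TopHat2 2.0.8, unstranded, per the labels), counted reads with featureCounts 1.4.5-p1 and deposited eRPKM, an RPKM-type value per liver. Annotation and duplicate handling are not given in the sources used here. The deposited table also holds the authors' comparison of 7 days with control in 3 columns that were not used (adjusted p-value, log2 fold change and a mean signal).

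The test was limma 3.58.1 in R 4.3.3 (lmFit, then eBayes with a trend) on log2(eRPKM + 0.5). The same fit was also run on data simulated from the mean shares and spread of these reads. The simulated means were proportional to depth and all genes had the same spread. It thus lacks the limited reads per kilobase of the most abundant genes, and no result above rests on it. One fit held the 3 groups and every gene that reached 0.5 eRPKM in 3 or more livers. Labels do not say whether livers are littermates. The p-values set differences of group means against the spread between these livers, pooled over the 3 groups and moderated across genes. Reads were recovered from eRPKM steps with GENCODE M1 exon lengths on NCBIM37 (mm9), with 99.99% of 177553 values above 0 within 0.1 of a whole read. They gave depth, reads per kilobase and a limma-voom alternative. Gene positions are from the same annotation, promoters from RefSeq (GRCm38.p6). Named genes outside the 10 were those called at 7 days with a mean of at least 1 eRPKM, at most 6 transporters and 4 of any other list, largest change first. For each called member the 3 nearest patterns were sought. Alternatives covered pseudocounts, filters, scaling, covariates (depth, Xist, the label suffix MF), a fit of the 2 compared groups, eBayes settings, female livers, each liver left out, a looser threshold and the replicate number as a block. Added after the values were seen were the 2 deepest controls only, genes under 300 reads per kilobase only, and scaling to those genes. Python 3.11.15, numpy 2.4.6, pandas 2.3.3 and matplotlib 3.10.9 were used.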

Additional observations from a re-analysis of the deposited data

Results flagged for a closer look

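The change against control differed between 3 and 7 days for 5 members, by the limma test of 7 against 3 days. The 7-day change was larger by 2.25 on the log2 scale for Slc7a7, by 2.04 for Slc38a1, by 1.85 for Slc1a5 and by 1.39 for Slc7a1, and for Slc7a2 the difference was -1.21. In each case all 3 livers at 7 days lay beyond all 4 at 3 days. The differences of Slc7a7, Slc38a1, Slc1a5 and Slc7a2 were called in all alternatives, and that of Slc7a1 in 14 of 24. All 3 livers at 7 days were female and deeply sequenced, and the part of sex and depth in these differences was not tested beyond the alternatives named. No liver stood apart from its group of 4 by Dixon's 95% limit in any of 20 sets of values. The 3 livers at 7 days were not examined. Among 4 values only a liver far from the rest passes this limit, so the test cannot show that none deviates. Control 4, the shallowest library, was the lowest control for Slc38a1, Slc7a1, Slc7a5, Slc7a7 and Slc1a5. It was the highest control for Slc38a3, Slc38a4 and Slc7a2, and neither for Slc38a2 and Slc3a2.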

How the results depend on the processing

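The 10 members kept their direction and their side of the threshold in 256 of 256 alternative values at 3 days, apart from changes of sign below the threshold, in 204 of 256 at 7 days against control, where 52 lost a call, and in 217 of 236 at 7 against 3 days, where 10 lost and 9 gained one. No called change turned its direction, and the cause of lost calls was not tested. At 7 days against control, the 5 members called higher were 3 with median-ratio size factors, quantile normalization, log2 Xist as a covariate, female livers only or the 2 deepest controls only, 2 with depth as a covariate, and 3 to 5 with 1 liver left out. The 3 called lower were 1 after quantile normalization, with the replicate block or among female livers, 1 to 3 with 1 liver left out, and 0 among genes under 300 reads per kilobase, which leave them out. At 7 against 3 days, the 1 called lower became 3 in a fit of the 2 groups only or at an adjusted p under 0.05, and 0 among genes under 300 reads per kilobase. With 1 liver left out this count stayed at 1, and that of members called higher lay between 3 and 5.

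Over all genes at 7 days against control, 2561 called higher became 1099 with depth as a covariate, 1523 among female livers, 3969 at an adjusted p under 0.05, 1406 with the 2 deepest controls and 1588 (without 7-day liver 3; 1671 without 7-day liver 2) to 2449 with 1 liver left out. The 822 called lower became 1254 with median-ratio size factors, 1821 after quantile normalization, 1421 at an adjusted p under 0.05 and 469 (without 7-day liver 3; 518 without 7-day liver 1) to 800 with 1 liver left out. At 7 against 3 days, 1997 called higher became 1326 with Xist, 1091 with depth, 1023 among females, 3621 at the looser threshold and 1048 to 2619 with 1 liver left out, at or under 1213 without 1 of the 7-day livers. The 756 called lower became 1181, 1430, 401 and 1464 with median-ratio, quantile, female livers and the looser threshold, and 364 to 1064 with 1 liver left out, at or under 486 without 3-day liver 4 or 1 of the 7-day livers. At 3 days, 6 called higher became 3 without a filter, 12 with median-ratio size factors, 10 with the MF suffix, 16 with Xist, 1 with depth or limma-voom, and 40 at the looser threshold. They became 0 (with 1360, 1697 and 1549 genes at an unadjusted p under 0.05 in limma) in the fit of 2 groups, without trend and with the 2 deepest controls. Without 1 liver they ranged from 0 to 53, the highest without 3-day liver 1. The 0 called lower became 1 among females and at the looser threshold, and 0 to 2 with 1 liver left out.

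The deviations of same-numbered livers from their group means had correlations of -0.222 to 0.269 (2 of 10 pairs over 0.1). The groups are small and the pairs share livers, so this cannot settle whether the numbers mark pairs. With the replicate block, 2032 genes were called higher and 688 lower at 7 days against control, 1429 and 552 at 7 against 3 days, and 3 and 0 at 3 days. The counts of Slc7a1, Slc1a5, Slc7a5 and Slc7a7 were lowest in the shallowest control, at 3 to 8 reads. Depth was not balanced between groups.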
